A study of Mus musculus with 16 samples.

Results

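Interferon-stimulated genes were followed in neutrophils sorted from the blood, spleen and lung of germ-free (GF) and specific-pathogen-free (SPF) mice. The set is a list of 45 gene symbols known as targets of interferon, and 44 of its members were among the 10296 genes measured. Mx1 was not analysed here. All animals were C57BL/6 mice. The 6 groups were GF blood (2 libraries), SPF blood (2 libraries), and GF spleen, SPF spleen, GF lung and SPF lung (3 libraries each), 16 RNA-seq libraries in all. A GF mouse is reared without any microbes, while an SPF mouse carries a microbiota but is kept free of listed pathogens. The labels give no age, treatment or genotype beyond the strain, and they do not say whether libraries of different tissues came from the same animals or whether replicates are separate animals, so a p-value here speaks only of variation among these libraries. Each library came from Ly6G+ cells, since Ly6G is the surface protein by which mouse neutrophils are recognised. SPF blood was set against the other 5 groups, gene by gene.

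Type I interferons bind the receptor pair Ifnar1 and Ifnar2, and interferon gamma binds Ifngr1 and Ifngr2. The kinases Jak1, Jak2 and Tyk2 then phosphorylate STAT transcription factors. With Irf9, STAT proteins form the factor ISGF3, which binds the interferon-stimulated response element (ISRE) in promoters, whereas interferon gamma acts through the gamma-activated site (GAS). The induced genes encode sensors of foreign nucleic acid, enzymes and binding proteins that block viral replication, GTPases that attack the compartments of intracellular pathogens, and brakes on the pathway itself. Low, constant interferon signalling keeps many of these genes transcribed in blood leukocytes in the absence of infection.

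The ISRE is shown first because it is the sequence feature by which many members are recognised. RefSeq promoter windows on GRCm38.p6, from 250 bases before to 50 bases after an annotated start, were found for 37 of the 45 symbols. The core motif GAAANNGAAA, searched on both strands, was present in 19 of 37 members (51.4%), against 3.99% of the 27025 genes in the table. It was present in 29 of the 59 further interferon-stimulated genes with a window (49.2%). The shorter GAS core TTCNNNGAA, searched on both strands, was found in 12 of 37 members (32.4%) and in 9.55% of all genes. Matches of either motif may overlap each other, and a match describes the letters and not a bound site. The stretches below are from promoters of 3 members that were higher in SPF blood (Isg15, Ifit1 and Igtp) and of 4 that did not pass that test (Ifit3, Oas3, Rsad2 and Gbp7). Each is written 5′ to 3′ on the strand of its gene, and capitals mark 1 match, which reads TTTCNNTTTC where the motif lies on the opposite strand.
Isg15 (chr4:156200860-156200899, minus strand): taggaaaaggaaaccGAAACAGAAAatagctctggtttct
Ifit1 (chr19:34640789-34640828, plus strand): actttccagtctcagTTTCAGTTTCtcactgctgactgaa
Igtp (chr11:58199507-58199546, plus strand): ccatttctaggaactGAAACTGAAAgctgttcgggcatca
Ifit3 (chr19:34583392-34583431, plus strand): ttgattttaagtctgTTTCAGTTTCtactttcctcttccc
Oas3 (chr5:120777710-120777749, minus strand): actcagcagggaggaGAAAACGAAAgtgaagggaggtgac
Rsad2 (chr12:26456548-26456587, minus strand): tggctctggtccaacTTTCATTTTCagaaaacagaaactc
Gbp7 (chr3:142530268-142530307, plus strand): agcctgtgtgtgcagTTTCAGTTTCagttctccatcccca
Isg15 had 3 matches in its window, Ifit1 and Ifit3 had 2 each, and the other promoters shown had 1. The motif was found in 7 of 16 members that were higher in SPF blood (43.8%) and in 12 of 21 that were tested and not called (57.1%). The windows of Irf7, Irf9, Irf1, Isg20, Trim25, Oasl1, Oasl2, Ifitm1 and Ifi47, all of them higher in SPF blood, held no match to these letters.

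Values below are levels in normalised counts, which is the deposited value of a gene less the value that the same library gives a gene with 0 reads. Libraries differed in depth, from 104213 to 3033941 estimated reads, and both SPF blood libraries were the deepest (2870559 and 3033941). GF blood held 1 deep library (2555255 reads) and 1 shallow library (132798 reads), and the spleen libraries had 104213 to 640596 reads. The 10 neutrophil markers were all measured, and their summed level was 78964 to 93835 in SPF blood and 33975 to 76985 in the other 14 libraries, so it was also highest in SPF blood. Between SPF blood and the mean of the other 5 groups, at an adjusted p under 0.05 (limma), these markers went both ways. Of 11 entries (Itgam has 2 identifiers), 2 were higher and 3 lower (median log2 difference 0.30). Over all genes tested, 6.62% were called higher and 11.7% lower in this comparison. Both blood groups carried transcripts known from red cells and platelets. The 5 erythroid markers measured of 7 summed to 43852 to 70113 in SPF blood and to 81200.3 to 99051 in GF blood, and to at most 21987 elsewhere. The 5 platelet markers measured of 6 summed to 342 to 471 in SPF blood, to 489 to 667 in GF blood, and to at most 21.9 elsewhere. Monocyte and macrophage markers (10 of 14 measured) summed to 1499.8 to 1581 in SPF blood, inside the range of 1120.3 to 1925 in the other groups, and C1qa, C1qb, C1qc and Cx3cr1 were at 0 reads in both SPF blood libraries. In the same comparison 2 of the 9 tested were higher and 5 lower (median -0.81). Plasmacytoid dendritic cell markers (3 of 7 measured) summed to 18.5 to 32.5 in SPF blood, below the 46.6 to 76.8 of the lung groups. B cell markers (6 of 7 measured) summed to 628 to 682, inside the range of 441 to 754 in the other groups. Yet 4 of the 6 were called lower in the same comparison (median -1.93). Against SPF lung 5 of the 6 were lower (median -2.92), where 12.5% of all genes were. Calls of markers use the deposited values, which still hold the value given to a gene with 0 reads, and the sums do not. That value is smallest in SPF blood (0.226 and 0.196, against 3.81 in SPF spleen replicate 1). Low markers thus lean lower in SPF blood in the calls than in the sums. T and NK cell markers (2 of 8 measured) summed to 12.2 to 16.7, against 0 to 15.8. Markers of lung structure (11 of 14 measured) summed to 3078 to 11812 in lung libraries and to at most 51.9 in the others. The part of these other cells, of depth and of the neutrophil marker level in the results was not tested beyond the values given. In sorted bulk samples, fewer cells that express a gene and less RNA per cell cannot be told apart.

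In SPF blood, 19 of the 44 members were higher than the mean of the other 5 groups and 0 were lower. A gene is called where limma's Benjamini-Hochberg adjusted p over 8299 genes is under 0.05. Among all genes tested, 6.62% were called higher and 11.7% lower. The median log2 difference of the members was 0.73, against -0.09 for all genes tested, and 35 of 44 members had a positive value. Of all genes tested, 14.4% lay above the members' median. The members were listed with earlier results of these data known, so these figures do not speak for interferon-stimulated genes as a class. The 55 other interferon-stimulated genes tested had a median of 0.02, with 8 higher and 1 lower. The 19 genes came from most of the functional groups: 3 of 3 interferon regulatory factors, 3 of 4 members of the ISG15 system, 3 of 5 OAS genes, 3 of 4 IFITM genes, 3 of 6 GTPases, 1 of 3 IFIT genes, 1 of 5 nucleic acid sensors, 2 of 11 other effectors, and 0 of 3 members of the Parp9 complex. The share of called genes was larger among abundant genes. With testing restricted to genes of at least 100 in at least 2 libraries, 26.2% of 2061 genes were called higher, and 19 of the 30 members that reached this limit. The count rested on both SPF blood libraries. Without SPF blood replicate 3 no member was called (19 at an unadjusted p under 0.05, limma, median 0.84), and without SPF blood replicate 4, 2 were (18 at an unadjusted p under 0.05, median 0.61), where the single library left is assumed to vary like the other groups. With depth thinned to 104213 reads in every library 9 were higher and 1 lower. Another alternative scaled each library to the same total over all genes other than the erythroid and platelet ones, in place of the deposited scaling. There 10 were higher and 1 lower. The median of all genes tested moved to -0.38 (270 genes higher and 1428 lower) and that of the members to 0.43. The change of scaling and the leaving out of those genes were not tested apart.

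**Figure D1:**
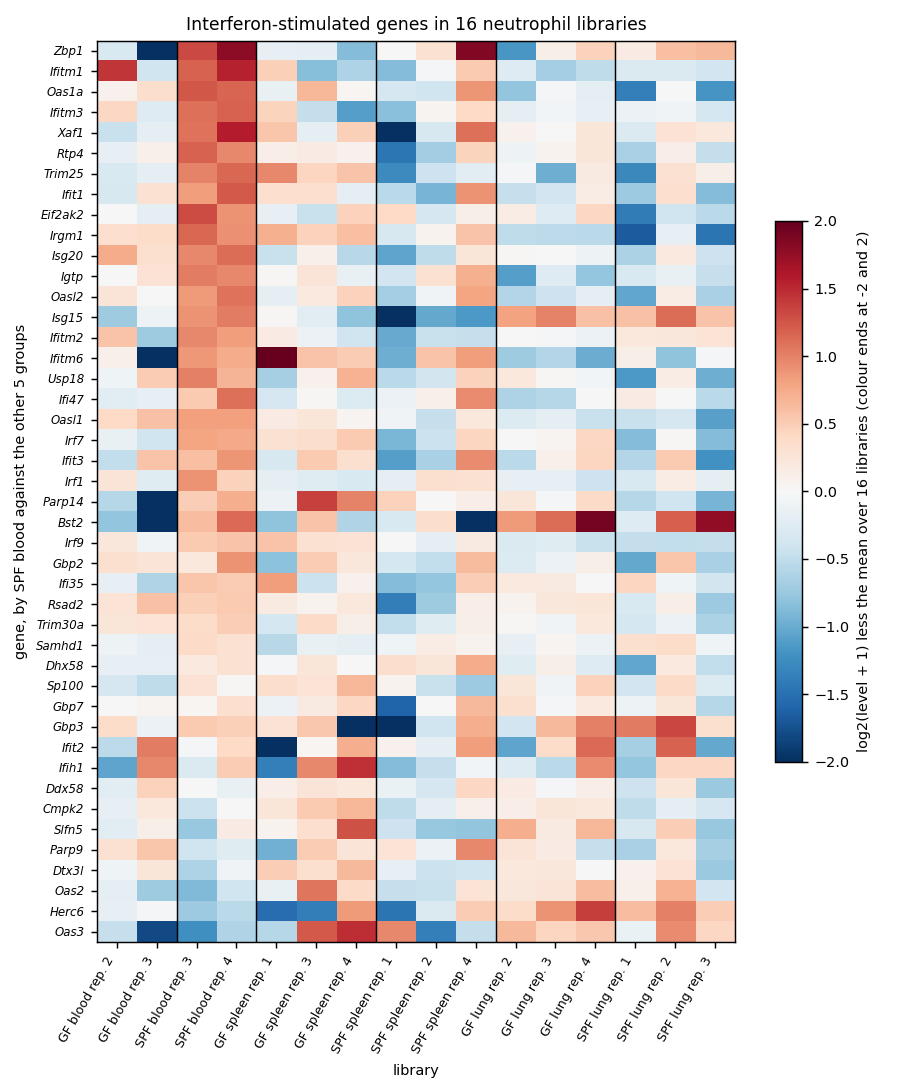
Heat map of 44 interferon-stimulated genes (rows, ordered by the difference between SPF blood and the other 5 groups) in 16 libraries (columns, by group). Colour is log2(level + 1) less the gene's mean over the 16 libraries, red above and blue below, with colours ending at -2 and 2. The 2 SPF blood columns are red for most genes in the upper part, and the rows from Ddx58 down are not.

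Both SPF blood libraries lay above all 14 other libraries for 13 of 44 members, and below all of them for 0. Over all genes tested, 7.75% lay above in this way and 7.84% below. The 13 were Irf7, Irf1, Oas1a, Oasl1, Oasl2, Rtp4, Trim25, Eif2ak2, Igtp, Irgm1, Isg20, Ifitm2 and Ifitm3. The SPF blood mean was the highest of the 6 group means for 28 members, that of GF spleen for 10, that of GF lung and of SPF spleen for 2 each, and that of GF blood and of SPF lung for 1 each. The lowest mean fell in SPF lung for 16 members and in SPF spleen for 10. Summed over the 44 members, the level was 18083 and 18490 in SPF blood, and it ranged from 7413 to 13153 in the other libraries. The 4 IFITM genes made up 18.6% to 39.4% of that sum. Without them, SPF blood had 11847 and 11953 and the other libraries 5836 to 9733.

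**Figure D2:**
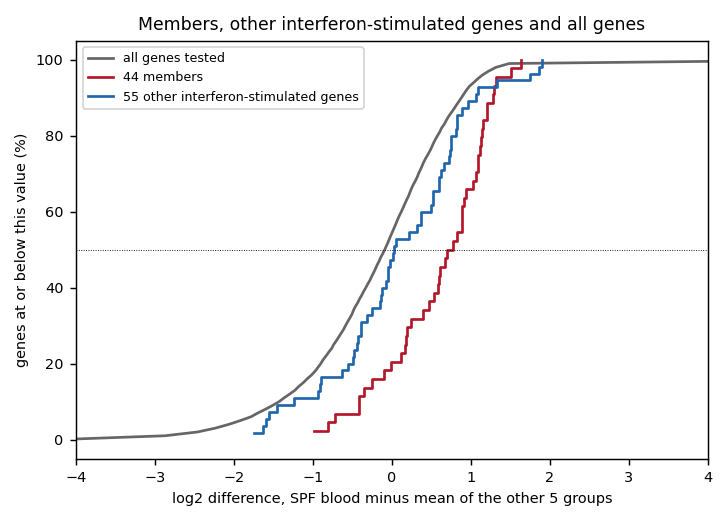
Cumulative share of genes (vertical axis, percent) at or below each log2 difference between SPF blood and the mean of the other 5 groups (horizontal axis), for all genes tested (grey), the 44 members (red) and 55 other interferon-stimulated genes (blue). The curves cross the dotted line, which marks the median, at -0.09 for all genes, 0.73 for the members and 0.02 for the other interferon-stimulated genes.

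The 3 interferon regulatory factors among the members were all higher in SPF blood. Irf7 amplifies type I interferon production and is itself induced by it. In normalised counts and by library, in the order of the replicate numbers, Irf7 was 696 and 679 in SPF blood, 361 and 304 in GF blood, 497, 516 and 577 in GF spleen, 213, 299 and 541 in SPF spleen, 399.6, 418 and 535 in GF lung, and 221, 410.2 and 219.6 in SPF lung. No other library reached the SPF blood values, and SPF lung held the lowest group mean (log2 difference 0.89 ± 0.24, adjusted p = 0.0117). Irf9 (chr14:55603571-55610030), the DNA-binding subunit of ISGF3, was at 426 and 441 in SPF blood, 345 and 281 in GF blood, 441, 365 and 360.4 in GF spleen, 297, 258 and 334 in SPF spleen, 241, 249.6 and 216 in GF lung, and 213, 209.8 and 211 in SPF lung. Here 1 GF spleen library lay between the SPF blood libraries, and the 3 SPF lung libraries were the lowest and close together (log2 difference 0.61 ± 0.19, adjusted p = 0.0205). Irf1 (chr11:53770014-53778374), which answers above all to interferon gamma, was the most abundant of the 3 at 1568 and 1159.8 in SPF blood, 1006 and 711 in GF blood, 735, 709 and 679 in GF spleen, 739, 1053 and 1044 in SPF spleen, 749.7, 752 and 634 in GF lung, and 681, 933 and 744 in SPF lung. SPF blood did not overlap any other group, although its own libraries were further apart than those of Irf7 (log2 difference 0.77 ± 0.18, adjusted p = 0.0039).

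In the ISG15 system, in which a small ubiquitin-like protein is attached to other proteins, Isg15, Trim25 and Usp18 were higher in SPF blood and Herc6 was not. Isg15 (chr4:156199424-156200818), the modifier itself, was at 178 and 194 in SPF blood, 57.5 and 88.9 in GF blood, 96.4, 81.5 and 54.1 in GF spleen, 15.2, 46.2 and 42.3 in SPF spleen, 167, 189 and 144 in GF lung, and 144, 209 and 142 in SPF lung. Of the 6 lung libraries, 2 reached the lower SPF blood value, and SPF spleen was lowest (log2 difference 1.07 ± 0.29, adjusted p = 0.0105). Trim25 (chr11:88999376-89020293), a ubiquitin ligase that also activates the sensor RIG-I, was at 186 and 208 in SPF blood, 75.2 and 81.5 in GF blood, 183, 126 and 138 in GF spleen, 38.1, 70.0 and 79.9 in SPF spleen, 90.5, 46.9 and 106 in GF lung, and 37.4, 115 and 101 in SPF lung. Its SPF blood values lay just above GF spleen replicate 1 and well above the others (log2 difference 1.20 ± 0.33, adjusted p = 0.0116). Usp18 (chr6:121245906-121270917) removes ISG15 from its targets and restrains signalling at the type I receptor. It stood at 179 and 142 in SPF blood, 83.7 and 126 in GF blood, 55.8, 93.8 and 144 in GF spleen, 61.0, 68.5 and 122 in SPF spleen, 103, 90.3 and 85.5 in GF lung, and 39.4, 97.9 and 44.8 in SPF lung, with 1 GF spleen library at the level of the lower SPF blood library (log2 difference 0.92 ± 0.32, adjusted p = 0.0458). Herc6, the main ISG15 ligase of mice, was at 13.3 and 15.3 in SPF blood and reached 29.7, 43.4 and 60.9 in GF lung (log2 difference -0.82 ± 0.47, adjusted p = 0.238). It had the lowest level per kilobase of exon of the 44 members in SPF blood.

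Of the 5 OAS genes, 3 passed the test. OAS enzymes make the short oligoadenylates that activate RNase L. Oas1a (chr5:120896256-120907521) was at 162 and 153 in SPF blood, 72.2 and 86.7 in GF blood, 60.9, 108 and 69.3 in GF spleen, 53.4, 51.5 and 126 in SPF spleen, 38.9, 66.8 and 59.5 in GF lung, and 25.6, 67.1 and 29.5 in SPF lung, with SPF blood above every other library and SPF spleen replicate 4 next (log2 difference 1.32 ± 0.34, adjusted p = 0.00683). Oasl1, an OAS-like protein that restrains translation of Irf7, was at 366 and 369 in SPF blood, 275 and 311 in GF blood, 233, 247 and 216 in GF spleen, 198, 150.4 and 239.8 in SPF spleen, 173, 183 and 152 in GF lung, and 152, 164 and 97.9 in SPF lung. Both blood groups were high, and SPF lung had the lowest group mean (log2 difference 0.89 ± 0.22, adjusted p = 0.0049). Oasl2, its neighbour at chr5:114896936-114937915, was at 1330.2 and 1561 in SPF blood, 883 and 733 in GF blood, 649, 842 and 1015 in GF spleen, 457, 704 and 1274 in SPF spleen, 493, 551 and 648 in GF lung, and 359, 812 and 472 in SPF lung. Its SPF blood libraries were highest and SPF spleen replicate 4 came close to them (log2 difference 1.09 ± 0.29, adjusted p = 0.0145). Oas2 and Oas3, which lie together at chr5:120730333-120777661, did not pass the test and had negative values. Oas2 was at 39.3 and 55.3 in SPF blood, which was the lowest group mean, and at 65.9, 156 and 96.1 in GF spleen (log2 difference -0.73 ± 0.31, adjusted p = 0.101). Oas3 was at 44.3 and 69.3 in SPF blood, 76.7 and 29.6 in GF blood, 71.0, 247 and 294 in GF spleen, 206, 40.2 and 75.2 in SPF spleen, 165, 142 and 154 in GF lung, and 96.6, 204 and 142 in SPF lung (log2 difference -0.99 ± 0.57, adjusted p = 0.263). The Oas3 values in blood were low in both groups, and the spleen libraries ranged widely. Oas2 passed the test as lower in 6 of 32 alternatives and Oas3 in 3 of 32. Reads of Oas1a may be shared with its close copies, such as Oas1g.

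Of the IFIT genes, which bind viral RNA and cluster at chr19:34550694-34650009, Ifit1 passed the test. Ifit1 was at 279 and 366 in SPF blood, 124 and 193 in GF blood, 198, 197 and 138 in GF spleen, 107, 81.9 and 292 in SPF spleen, 113, 119 and 174 in GF lung, and 94.1, 198 and 85.4 in SPF lung. Only SPF spleen replicate 4 fell within the SPF blood range (log2 difference 1.15 ± 0.36, adjusted p = 0.0303). Ifit3 was at 291 and 351 in SPF blood, and SPF spleen spanned 88.5 to 367 (log2 difference 0.82 ± 0.51, adjusted p = 0.299). Ifit2 was low everywhere, between 5.07 and 66.4, and SPF blood was in the middle of the range (log2 difference 0.11 ± 0.66, adjusted p = 0.933). Ifit3 shares sequence with the copy Ifit3b, so its value is uncertain.

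Among the nucleic acid sensors, only Zbp1 passed the test. Zbp1, which binds Z-form nucleic acid and can start necroptosis, was at 58.7 and 81.2 in SPF blood, 18.2 and 0 in GF blood, 20.3, 19.7 and 12.01 in GF spleen, 22.9, 28.3 and 84.6 in SPF spleen, 9.66, 24.8 and 31.9 in GF lung, and 25.6, 35.0 and 36.4 in SPF lung. SPF blood was high, but SPF spleen replicate 4 was higher than either SPF blood library (log2 difference 1.64 ± 0.48, adjusted p = 0.0166). The 0 in GF blood replicate 3 allows up to 22.2, the level that 3 reads would have in that shallow library. Floors and intervals of this kind cover counting error only. Eif2ak2, the kinase PKR, which halts translation on double-stranded RNA, was at 43.8 and 32.9 in SPF blood, 17.2 and 14.8 in GF blood, 15.2, 12.3 and 24.03 in GF spleen, 22.9, 13.4 and 18.8 in SPF spleen, 19.3, 14.2 and 23.2 in GF lung, and 5.91, 12.8 and 11.5 in SPF lung. Its SPF blood libraries lay above all others, yet the difference did not pass (log2 difference 1.14 ± 0.43, adjusted p = 0.0625). The RNA helicases did not pass the test either. Ddx58, which encodes RIG-I, was at 135 and 121 in SPF blood, 115 and 185 in GF blood, 147, 160.5 and 156 in GF spleen, 122, 106 and 179 in SPF spleen, 151, 130.1 and 148 in GF lung, and 101, 158 and 80.2 in SPF lung, and the groups overlapped throughout (log2 difference -0.10 ± 0.25, adjusted p = 0.822, 95% interval -0.62 to 0.41). Ifih1, which encodes MDA5, ranged from 5.07 to 42.0 (log2 difference -0.01 ± 0.56, adjusted p = 0.995), and Dhx58, which encodes their regulator LGP2, ranged from 19.7 to 70.5 (log2 difference 0.25 ± 0.32, adjusted p = 0.64).

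Of the 6 interferon-inducible GTPases, 3 were called. The immunity-related GTPases Igtp, Irgm1 and Ifi47, which act on vacuoles of intracellular pathogens, were all higher in SPF blood. Igtp (chr11:58199556-58207591) was at 222 and 214 in SPF blood, 109 and 133 in GF blood, 112, 131 and 98.6 in GF spleen, 83.8, 136 and 179 in SPF spleen, 50.6, 91.1 and 63.8 in GF lung, and 87.8, 98.6 and 79.1 in SPF lung, with no overlap (log2 difference 1.09 ± 0.26, adjusted p = 0.0039). Irgm1 (chr11:48861968-48871683) was at 255 and 215 in SPF blood, 144 and 148 in GF blood, 188, 158 and 174 in GF spleen, 91.5, 119 and 169 in SPF spleen, 79.7, 78.8 and 78.3 in GF lung, and 35.5, 101 and 40.6 in SPF lung. Its order ran from SPF blood through GF spleen to lung, where the 3 GF lung libraries were almost equal (log2 difference 1.13 ± 0.28, adjusted p = 0.00556). Ifi47 (chr11:49076587-49096974) was at 84.0 and 125 in SPF blood, 50.04 and 51.9 in GF blood, 45.6, 59.2 and 48.1 in GF spleen, 53.4, 62.6 and 113 in SPF spleen, 37.4, 38.9 and 58.0 in GF lung, and 65.0, 58.3 and 39.6 in SPF lung, where SPF spleen replicate 4 lay inside the SPF blood range (log2 difference 0.89 ± 0.31, adjusted p = 0.0397). The guanylate-binding proteins Gbp7, Gbp3 and Gbp2, which lie side by side at chr3:142530342-142638008, did not pass the test. Their log2 differences were 0.18, 0.17 and 0.59. Gbp2 was the most abundant of them, at 137 and 219 in SPF blood and 57.2 to 183 elsewhere. These genes are near copies of each other and of other family members, so reads could be shared between them.

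None of the 3 genes of the Parp9 complex was called. Parp9 and Dtx3l encode an ADP-ribosyltransferase and a ubiquitin ligase that act as a pair, and Parp14 is a related enzyme, all at chr16:35832874-35972605. Parp9 was at 38.1 and 42.4 in SPF blood, the lowest group mean, and between 25.4 and 98.8 elsewhere (log2 difference -0.42 ± 0.35, adjusted p = 0.437). Dtx3l had the same sign (log2 difference -0.42 ± 0.28, adjusted p = 0.32). Parp14 was at 54.7 and 64.7 in SPF blood, 25.7 and 7.41 in GF blood, 35.5, 101 and 78.1 in GF spleen, 53.4, 38.7 and 42.3 in SPF spleen, 45.9, 38.1 and 50.7 in GF lung, and 25.6, 29.1 and 19.8 in SPF lung. The GF blood libraries were low, SPF blood was in the upper range and 2 GF spleen libraries were higher still (log2 difference 0.70 ± 0.36, adjusted p = 0.179).

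The IFITM genes, which encode membrane proteins that block viral fusion and form a cluster at chr7:140954837-141017924, included the 3 members highest per kilobase in SPF blood. In levels not divided by length, Samhd1 (mean 1878 in SPF blood) lay above Ifitm3 (mean 1684). Per kilobase of exon, the SPF blood level was 4099.7 for Ifitm2, 2484 for Ifitm3 and 1722 for Ifitm1, against 391 for Rtp4, the next member. Ifitm2 was at 2803 and 2567 in SPF blood, 2143 and 878 in GF blood, 1608, 1326 and 1093 in GF spleen, 716, 1054 and 1044 in SPF spleen, 1438, 1399.9 and 1329 in GF lung, and 1654, 1687 and 1741 in SPF lung. SPF blood lay above all other libraries, and GF blood replicate 2 came next (log2 difference 1.02 ± 0.21, adjusted p = 0.00131). Ifitm3 was at 1638 and 1729 in SPF blood, 1007 and 636 in GF blood, 1029.6, 548 and 354 in GF spleen, 427, 787 and 997 in SPF spleen, 672, 727 and 681 in GF lung, and 702, 724 and 595 in SPF lung. The gap to the next library, GF spleen replicate 1, was wide, and the lung libraries were close together (log2 difference 1.29 ± 0.30, adjusted p = 0.00672). Ifitm1 was at 1654 and 2113 in SPF blood, 1956 and 548 in GF blood, 1014, 402 and 475 in GF spleen, 396, 716 and 1049 in SPF spleen, 605, 450.4 and 512 in GF lung, and 595, 594 and 556 in SPF lung. Here GF blood replicate 2 lay between the SPF blood libraries while GF blood replicate 3 was at the level of the tissues (log2 difference 1.51 ± 0.45, adjusted p = 0.0366). Ifitm6 ranged from 14.8 to 314 and did not pass (log2 difference 0.93 ± 0.50, adjusted p = 0.212). Ifitm1, Ifitm2 and Ifitm3 are similar in sequence, which leaves the split of reads between them uncertain.

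**Figure D3:**
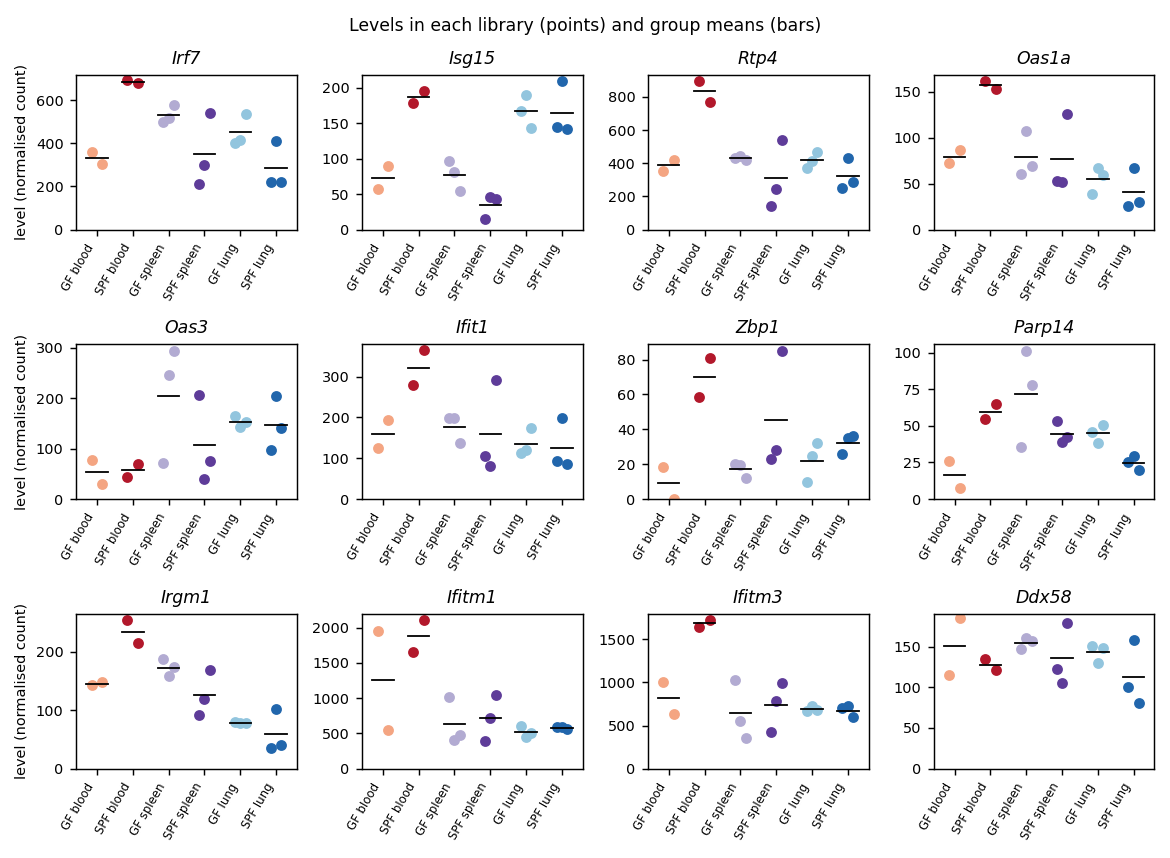
Levels of 12 members in every library (points, vertical axis in normalised counts from 0) for the 6 groups, with group means as bars. The SPF blood points stand above all others for Irf7, Rtp4, Oas1a, Irgm1 and Ifitm3, the lung points reach them for Isg15, and Oas3 and Ddx58 are not raised in SPF blood.

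Isg20 and Rtp4 were the effectors that passed the test among 11 with other roles. Isg20, an exonuclease that degrades viral RNA, was at 309 and 345 in SPF blood, 267 and 200.01 in GF blood, 117, 170.3 and 108 in GF spleen, 76.2, 112 and 188 in SPF spleen, 162, 159 and 148 in GF lung, and 102, 183 and 119.7 in SPF lung. Blood was the highest tissue, and both SPF blood libraries lay above the GF blood libraries (log2 difference 1.12 ± 0.26, adjusted p = 0.00315). Rtp4, a chaperone of receptors in the secretory pathway that also restrains viral RNA, was at 897 and 769 in SPF blood, 354 and 422 in GF blood, 431, 444 and 420.5 in GF spleen, 145, 243 and 541 in SPF spleen, 369, 416 and 468 in GF lung, and 252, 431 and 285 in SPF lung. Both SPF blood libraries stood well above the next library, SPF spleen replicate 4 (log2 difference 1.21 ± 0.29, adjusted p = 0.00561). The other 9 were not called. Xaf1, which promotes apoptosis, was at 37.0 and 52.1 in SPF blood and between 0 and 37.6 elsewhere (log2 difference 1.29 ± 0.50, adjusted p = 0.0743). Rsad2, which encodes viperin, was at 607 and 630.0 in SPF blood, 526 and 659 in GF blood and 168 to 515 in the tissues (log2 difference 0.53 ± 0.24, adjusted p = 0.128). Its neighbour Cmpk2 (both at chr12:26442746-26479837), a nucleotide kinase, had a value of the other sign (-0.26 ± 0.22, adjusted p = 0.439). Samhd1, which removes the nucleotides needed for reverse transcription, was high in every library, from 1004 to 1925 (log2 difference 0.39 ± 0.16, adjusted p = 0.0829). Bst2, which tethers budding virus to the cell surface, was at 0 to 39.1 and highest in GF lung (log2 difference 0.67 ± 0.55, adjusted p = 0.42). Trim30a (0.47), Ifi35 (0.59), Sp100 (0.19) and Slfn5 (-0.36) had log2 differences that did not pass.

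**Figure D4:**
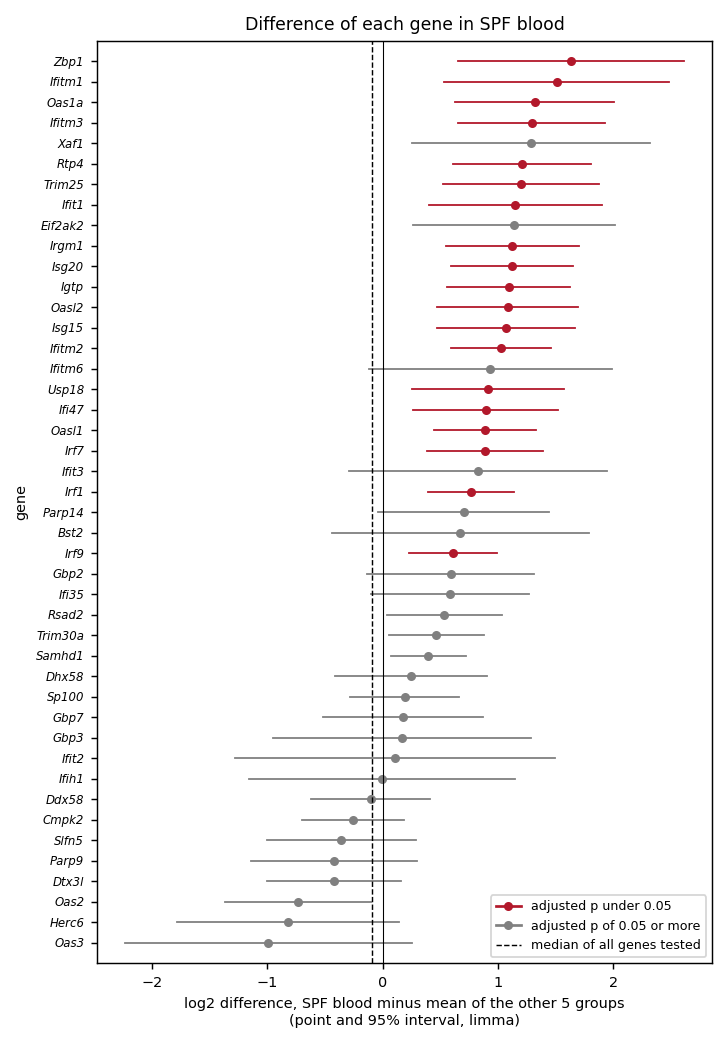
Log2 difference of each of the 44 members between SPF blood and the mean of the other 5 groups (horizontal axis), with 95% intervals from limma. Genes with an adjusted p under 0.05 are red, and the dashed line is the median of all genes tested (-0.09). The 19 red intervals lie to the right of 0, and the widest grey ones are those of Ifit2 and Oas3.

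Set against GF blood alone, the comparison of SPF with GF mice within the blood, 1 member was called higher in SPF blood and 0 lower. Over all genes tested, 0.53% were higher and 0.795% lower. The called gene was Zbp1, at 58.7 and 81.2 in SPF blood and 18.2 and 0 in GF blood (log2 difference 2.88 ± 0.63, adjusted p = 0.018). The call was lost in 8 of 32 alternatives. Among them were those without GF blood replicate 3, when the difference was 1.85, and without either SPF blood library. Each of these leaves a single library in a blood group. The members' median was 0.64, against -0.02 for all genes tested, 36 of 44 had a positive value and 18 had an unadjusted p under 0.05. The largest differences that did not pass were those of Bst2 (1.85 ± 0.72, adjusted p = 0.187), Parp14 (1.75 ± 0.48, adjusted p = 0.0585) and Ifitm6 (1.74 ± 0.65, adjusted p = 0.197), which rest on 0, 1 and 2 reads in the shallow GF blood replicate 3, in that order. Among better measured genes, Isg15 differed by 1.33 ± 0.39, adjusted p = 0.0736, Irf7 by 1.04 ± 0.32, adjusted p = 0.0964 and Rtp4 by 1.09 ± 0.38, adjusted p = 0.143. Oasl1 (0.32) and Isg20 (0.49) had smaller values between the blood groups, although both were called against each SPF tissue. Parp9 had the lowest value (-0.77 ± 0.46). The number of calls depended on the method. It was 12 when only the 4 blood libraries were fitted and 13 with limma's voom weights, all higher, and 0 to 6 when single libraries were left out. This contrast, the first and the next 2 share the SPF blood libraries.

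Set against the other SPF tissues, 9 members were called higher in SPF blood than in SPF spleen and 0 lower, with 4.01% of all genes higher and 3.05% lower. They were Isg15 (2.41 ± 0.35), Trim25 (1.64 ± 0.40), Rtp4 (1.62 ± 0.35), Ifitm2 (1.53 ± 0.25), Isg20 (1.44 ± 0.31), Ifitm3 (1.27 ± 0.36), Rsad2 (1.14 ± 0.29), Irf7 (1.06 ± 0.29) and Oasl1 (0.91 ± 0.26), as log2 differences ± SE. Isg15 had the smallest adjusted p, 9.98e-05, and that of Ifitm3 was 0.0432. Leaving out single libraries gave 2 (without SPF blood replicate 3) to 16 calls (without SPF spleen replicate 4). The median was 0.69 over the members and -0.09 over all genes tested. Against SPF lung, 18 members were higher and 0 lower, with 6.63% of all genes higher and 12.5% lower. Irgm1 (2.11 ± 0.34, adjusted p = 3.07e-05), Oas1a (2.03 ± 0.41, adjusted p = 0.000507) and Oasl1 (1.44 ± 0.26, adjusted p = 0.00017) had the smallest adjusted p. Eif2ak2 (1.78 ± 0.52), Usp18 (1.48 ± 0.39), Oasl2 (1.48 ± 0.35), Ifit1 (1.43 ± 0.43), Irf9 (1.03 ± 0.23), Trim30a (0.79 ± 0.24) and Parp14 (1.21 ± 0.44) also passed. The others were Trim25, Irf1, Ifitm1, Ifitm3, Irf7, Rtp4, Isg20 and Igtp, at 0.79 to 1.68. Isg15 did not (0.19 ± 0.35, adjusted p = 0.759). Without SPF blood replicate 3, 7 were called. The median was 0.86, against -0.16 for all genes tested.

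Within spleen and within lung, no member was called between SPF and GF mice. In spleen 0 of 44 were called by limma in either direction (10 at an unadjusted p under 0.05, and 0 with voom weights), against 0.0723% of all genes higher and 0.253% lower. The members' median was -0.37, against -0.01 for all genes tested, and 12 of 44 had a positive value. The lowest values were those of Trim25 (-1.24 ± 0.36, adjusted p = 0.123), Slfn5 (-1.18 ± 0.34, adjusted p = 0.123) and Isg15 (-1.16 ± 0.32, adjusted p = 0.101). In lung 0 of 44 were called by limma (4 at an unadjusted p under 0.05, and 0 with voom weights), against 0.012% of all genes higher and 0.012% lower. Here the median was -0.26, against -0.03 for all genes tested, and 9 of 44 had a positive value. Irf7 had the smallest unadjusted p (-0.72 ± 0.26, adjusted p = 0.999). Between GF blood and the mean of GF spleen and GF lung, 0 members were higher and 1 was lower, with 0.856% of all genes higher and 3.63% lower, and the median was -0.03 over the members and -0.11 over all genes tested. The lower gene was Parp14 (-1.65 ± 0.39, adjusted p = 0.00918), which was not called without GF blood replicate 3, when the difference was -1.07. Bst2 (-1.67 ± 0.59) and Oas3 (-1.68 ± 0.62) had values as low but did not pass, and Ifitm1 (0.92 ± 0.48) and Isg20 (0.70 ± 0.28) were at the other end.

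The difference between SPF and GF mice was itself compared between blood and the other tissues. With the mean of the SPF minus GF differences in spleen and lung subtracted from that in blood, 3 members were called higher and 0 lower, against 0.157% of all genes higher and 0.181% lower. The median was 0.70 over the members and 0.01 over all genes tested, 40 of 44 had a positive value, and 20 had an unadjusted p under 0.05. Irf7 differed by 1.04 in blood, -0.69 in spleen and -0.72 in lung (difference of differences 1.75 ± 0.37, adjusted p = 0.0391). Isg15 differed by 1.33, -1.16 and -0.03 in the same order (difference of differences 1.93 ± 0.45, adjusted p = 0.0475). Parp14 differed by 1.75, -0.54 and -0.82 (difference of differences 2.43 ± 0.55, adjusted p = 0.0475). Trim25 (1.91 ± 0.50, adjusted p = 0.0884) and Rtp4 (1.64 ± 0.44, adjusted p = 0.107) came next and did not pass. These calls were close to the threshold: leaving out single libraries gave 0 to 5 of them, and 0 in 10 of the 16 cases. Parp9 had the lowest value (-0.80 ± 0.54).

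In SPF lung and in SPF spleen, most members were highest in the same library. For each group below, the library named is the one that was highest for the most members. In SPF lung, replicate 2 was the highest of the 3 libraries for 36 of 44 members, whereas it was so for 35.4% of all genes tested. Ifit1 (94.1, 198 and 85.4), Ifit3 (127, 276 and 81.9) and Irgm1 (35.5, 101 and 40.6) show the gap between replicate 2 and the others. In SPF spleen, replicate 4 was the highest for 33 of 44 members and for 32.2% of all genes. It held 145, 243 and 541 for Rtp4 and 88.5, 121 and 367 for Ifit3, by replicate. SPF lung replicate 2 had 897132 reads and SPF spleen replicate 4 had 202341, and the part of depth in this pattern was not tested. In SPF blood, replicate 4 was the higher library for 29 of 44 members and for 46.3% of all genes. In GF blood, the shallow replicate 3 was the higher library for 24 of 44 members and for 29.7% of all genes. In GF lung, replicate 4 was the highest for 21 of 44 members and for 33.8% of all genes. In GF spleen, replicate 3 was the highest for 17 of 44 members and for 31.9% of all genes, which are similar shares. Replicates 1 and 4 were so for 13 and 14 members.

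The other genes of the pathway were read in the same contrast of SPF blood with the other 5 groups. Among all genes tested, 6.62% were called higher and 11.7% lower in it, with a median of -0.09. Counts in the short lists here were not tested against these shares. Of 16 genes for interferon receptors and their JAK-STAT signalling, 15 were tested, 2 were higher and 1 was lower, with a median of 0.10. The higher genes were the receptor subunits Ifngr2 (1.38 ± 0.23, adjusted p = 0.000142) and Ifnar2 (0.92 ± 0.25, adjusted p = 0.00899). Ifngr2 was at 289 to 311 in SPF blood, 104 to 139 in GF blood, 107 to 148 in GF spleen, 129.6 to 231 in SPF spleen, 45.9 to 55.1 in GF lung and 133 to 156 in SPF lung. It was also higher in SPF than in GF blood (1.29 ± 0.31, adjusted p = 0.0311). The kinase Jak1 was lower (-0.65 ± 0.19, adjusted p = 0.0179). Of 20 genes for sensing of nucleic acid upstream of interferon, 14 were tested, with a median of -0.21. In each direction 1 of the 14 was called, which is close to or under the shares of all genes. The adaptor Myd88 was higher (0.56 ± 0.19, limma adjusted p = 0.0360) and the RNA receptor Tlr7 was lower (-2.69 ± 0.56, limma adjusted p = 0.00117). Tlr7 was at 1.36 to 2.35 in SPF blood and between 4.47 and 78.1 elsewhere. The genes of the interferons themselves were not analysed here.

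A further list of 76 interferon-stimulated genes that are not among the members was read in the same contrast. Of these, 55 were tested, 8 were higher in SPF blood and 1 was lower, where 6.62% of all genes were higher and 11.7% lower, and the median was 0.02. The 4 genes of smallest p were Ly6e, a surface protein that restrains coronavirus fusion (1.07 ± 0.18, adjusted p = 0.000140), the Schlafen gene Slfn2 (0.82 ± 0.15, adjusted p = 0.000431), the lectin Lgals9 (0.82 ± 0.19, adjusted p = 0.00287) and Trim12c (1.09 ± 0.25, adjusted p = 0.00336). Ly6e was at 2424 to 2554 in SPF blood and between 762 and 1592 in the other libraries. The lower gene was the RNA editing enzyme Adar (-0.93 ± 0.27, adjusted p = 0.0151), at 50.6 to 52.9 in SPF blood and 61.1 to 140.1 elsewhere. Against SPF lung, 14 of the 55 were higher and 5 lower (6.63% and 12.5% of all genes), and against GF blood 1 was higher, the nuclear body gene Sp110 (2.40 ± 0.52, adjusted p = 0.0166), which was at 0 in GF blood replicate 3.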

How the data were processed

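Neutrophil RNA was measured by paired-end RNA-seq in 16 libraries. Per the submitters' processing notes, CASAVA, RSEM 1.3.1, limma and the mouse assembly mm10 were used, and the scaling and the annotation version are not given in the sources used here. The authors deposited 1 table of linear signal values per gene and library. The smallest value of a library has the form of 0.5 reads, so the deposited signal reads as an expected count plus 0.5, scaled between libraries. Of low values, 91.4% to 98.7% lay within 0.05 of a whole read, which was too few for count tests. Members were matched by symbol, and coordinates came from GENCODE M21 (GRCm38), where 10275 of 10296 identifiers matched.

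A gene entered the tests if 2 or more libraries had it at 10 or above (8299 kept, 1997 removed, all 44 members kept). Differences were fitted with limma 3.58.1 in R 4.3.3 on log2(value + 1). The fit took 6 group means in 1 model of 16 libraries, with a trended and robust prior. The added 1 can understate changes of low genes. The value tested also keeps its offset of 0.5 reads, which is 0.226 and 0.196 in the SPF blood libraries and 3.81 in SPF spleen replicate 1. Genes with few reads thus lean lower in SPF blood in the tests than in their levels. Tests were two-sided with Benjamini-Hochberg adjustment over all genes within each of 8 comparisons, at a threshold of 0.05. The procedure was tested on simulated data. Level per kilobase is the level over the exon length. Members, lists, comparisons and alternatives were chosen with earlier results of these data known. Values per library are given for members called in SPF blood against the other 5 groups and for a few that contrast with them, of which Oas3, Ddx58, Eif2ak2 and Parp14 were picked after their values were seen. Alternatives were other pseudocounts, filters, scalings and priors, weights, a replicate block, equal depth, and leaving out libraries.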

Additional observations from a re-analysis of the deposited data

Results flagged for a closer look

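For 3 genes the difference between SPF and GF neutrophils was not the same in blood as in the other tissues, by limma's test of the difference itself. The SPF minus GF difference in blood, less the mean of those in spleen and lung, was 1.75 for Irf7, 2.43 for Parp14 and 1.93 for Isg15 on the log2 scale. Irf7 was not called in 14 of 32 alternatives, Parp14 in 17 of 31 and Isg15 in 21 of 32. Over all alternatives the values stayed between 1.46 and 1.93 for Irf7, 1.85 and 3.17 for Parp14, and 1.59 and 2.53 for Isg15. Without GF blood replicate 3, the shallow blood library, the values were 1.63, 1.85 and 2.26.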

How the results depend on the processing

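Counts of members called are given for the contrasts in which they moved by more than 1.5 times. SPF blood against the other 5 groups (19 members) gave 10 without a trended or robust prior, 10 at equal depth, 29 with voom weights (27 higher and 2 lower), 11 after rescaling without erythroid and platelet genes, and 0 to 21 when single libraries were left out. Of those 29, 19 were the members called in the main analysis. SPF blood against GF blood (1 member) gave 2 at a limit of 100, 2 with median-ratio rescaling, 0 without the prior, 8 with array weights, 2 without libraries under 250000 reads, 12 with only the groups compared, 2 at equal depth, 13 with voom weights, and 0 to 6 with libraries left out. SPF blood against SPF spleen (9 members) gave 5 with quantile normalisation, 1 without the prior, 15 with array weights, 4 with only the groups compared, 17 with voom weights, 5 after rescaling without erythroid and platelet genes, and 2 to 16 with libraries left out. SPF blood against SPF lung (18 members) gave 28 with voom weights and 7 to 20 with libraries left out. SPF against GF spleen (0 members) gave 1 without libraries under 250000 reads, 2 without the 4 shallowest spleen and blood libraries, and 0 to 3 with libraries left out. SPF against GF lung gave 0 under every alternative run. The comparison of the SPF minus GF difference between blood and the other tissues (3 members) gave 1 with a pseudocount of 0.1, 1 with quantile normalisation, 0 without the prior, 8 with voom weights, and 0 to 5 with libraries left out. GF blood against GF spleen and lung (1 member) gave 0 at a limit of 100, 4 without libraries under 250000 reads, 2 with voom weights, 4 without the 4 shallowest libraries, and 1 to 2 with libraries left out. The sign turned for Ifitm1 between SPF and GF blood, to -0.065 without GF blood replicate 3, without libraries under 250000 reads and without the 4 shallowest libraries (-0.065 to 1.76 with libraries left out), and for Isg15 between SPF blood and SPF lung, to -0.059 after rescaling without erythroid and platelet genes. The cause of these changes was not tested. Leaving out the 4 shallowest libraries and rescaling without erythroid and platelet genes were chosen after seeing the data. The limit of 250000 reads left a single library in GF blood, in GF spleen and in SPF spleen. Without the 4 shallowest libraries, GF blood and GF spleen each kept a single library. Leaving out a library of a blood group did the same to that group. Such a library is assumed to vary like the other groups, so these counts are uncertain.

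Whether replicate numbers pair the samples could not be told. Deviations from the group means correlated at -0.13 to 0.07 in 9 pairs with the same number and status. In 33 pairs of the same status with different numbers they correlated at -0.11 to 0.13. This check cannot exclude pairing, since the means are those of 2 or 3 libraries, and in a group of 2 the deviations mirror each other. With the replicate block, 15 members were called in SPF blood against the other 5 groups, 0 against GF blood, and 0 in the comparison of the SPF minus GF difference between tissues (1 with the block as a random effect). Count tests with edgeR or DESeq2 were not run, because the values did not give whole reads in enough libraries. In the shallow libraries, 1 read is worth up to 7.62 normalised counts.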
